A study of Mus musculus with 6 samples.

Results

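Kupffer cells are the resident macrophages of the liver, and the barcodes described here are those of a mouse liver single-cell series that carried Kupffer marker transcripts with few endothelial ones. Members were thus chosen by measured UMI counts of these genes, which serve below as a description. A barcode was a member if it had at least 300 genes and under 25% mitochondrial unique molecular identifiers (UMIs, each counted once per captured transcript). It also had to hold at least 3 of the 7 genes Clec4f, Vsig4, Cd5l, Timd4, C6, Cd163 and Fcna. Its endothelial genes Kdr, Clec4g, Ptprb and Dnase1l3 had to sum to under 0.2% of its UMIs, its cycling genes Mki67, Top2a, Ube2c, Cenpf and Birc5 to under 3 UMIs, and Cd3e and Cd79a to 0. Of 66935 barcodes that passed the gene and mitochondrial limits in 6 libraries, 7552 were members. Control replicates 1 and 2 gave 242 and 254 of them, the pre-metastatic replicates 880 and 761, and the macro-metastatic replicates 2847 and 2568. They are called Kupffer marker barcodes below, because in the macro-metastatic libraries the markers did not bear out the cell type for all of them.

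Kupffer cells sit inside the sinusoids, attached to the endothelium, where they take up bacteria, immune complexes, spent erythrocytes and lipoproteins from portal blood. Their identity depends on signals from the surrounding endothelial, stellate and parenchymal cells, acting through factors such as Id3, Nr1h3 (LXR-alpha), Spic and Maf. They recover the iron of erythrocyte haem and return it to plasma through ferroportin, the product of Slc40a1. On inflammatory stimulation they release chemokines for neutrophils and monocytes, and suppressive mediators such as interleukin 10.

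The control livers carry the genotype label ctrl. The pre-metastatic and macro-metastatic livers come from an orthotopic mouse model of colorectal cancer, labelled for its niche before metastasis and for its niche with overt metastases. All 6 libraries, controls included, carry the cell line label CT26-GFP, a mouse colon carcinoma line with green fluorescent protein, and the labels do not say what the control animals received. After mincing of the whole liver and collagenase II digestion, the suspension was filtered, erythrocytes and dead cells were removed, and cells were captured on the BD Rhapsody system. Strain, age and sex of the animals, the site of the graft and the time from grafting are not in the labels. Each group has 2 numbered replicates, and no label says whether they come from different animals. The p-values below therefore reflect the spread between 2 libraries of a kind, and this spread may be technical.

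The libraries differed in depth and in capture. Total UMIs ranged from 41914149 to 90819751 per library, and the macro-metastatic libraries were the deepest. The members' UMIs summed to 1759058 and 2044261 for control, 6604595 and 8971852 for pre-metastatic and 29388070 and 34345959 for macro-metastatic libraries. The median member held 6910.5 to 8741.5 UMIs in control libraries, 9145 to 10658 in pre-metastatic and 12448.5 to 13127 in macro-metastatic ones. The median mitochondrial share ran the other way, at 9.71% to 10.3% for control, 6.89% to 7.02% for pre-metastatic and 5.36% to 5.96% for macro-metastatic members. Pairs of libraries shared 126 to 222 cell barcodes, and 0 to 13 among the members. Between 0.394% and 2.63% of members in a library were predicted doublets.

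The members were described first by the share of a barcode's UMIs that the 7 marker genes made up. The rule chose members by these genes, so the share is no independent check of the label. In control and pre-metastatic libraries this share had a single main mode, with library medians from 1.55% to 1.80%. The macro-metastatic members fell into a low and a high group, although their medians were 1.45% and 1.88%. With a limit of 0.5%, set after this spread was seen, 61.3% and 77.5% of macro-metastatic members were marker-rich, against 96.7% and 96.1% of control members, and 92.3% and 92.4% of pre-metastatic members were. The marker-poor rest held 29.3% and 15.9% of the members' UMIs in the macro-metastatic libraries and at most 5.07% in any other. Any marker was found in 78.4% and 73.0% of all kept macro-metastatic barcodes, against 20.3% and 17.8% of kept control barcodes. In B cell barcodes, which should lack these genes, the 7 markers summed to 274 and 205 CPM (counts of a gene per 1e+06 UMIs) in the macro-metastatic libraries, against 18.8 and 24.4 CPM in the control libraries. Clec4f and Vsig4 could add nothing to these sums, because B cell barcodes were chosen with 0 UMIs of both. The marker-poor members are therefore given no cell type. Most gene lists are also counted among the 5729 marker-rich barcodes, and many single genes are given for them too.

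**Figure D1:**
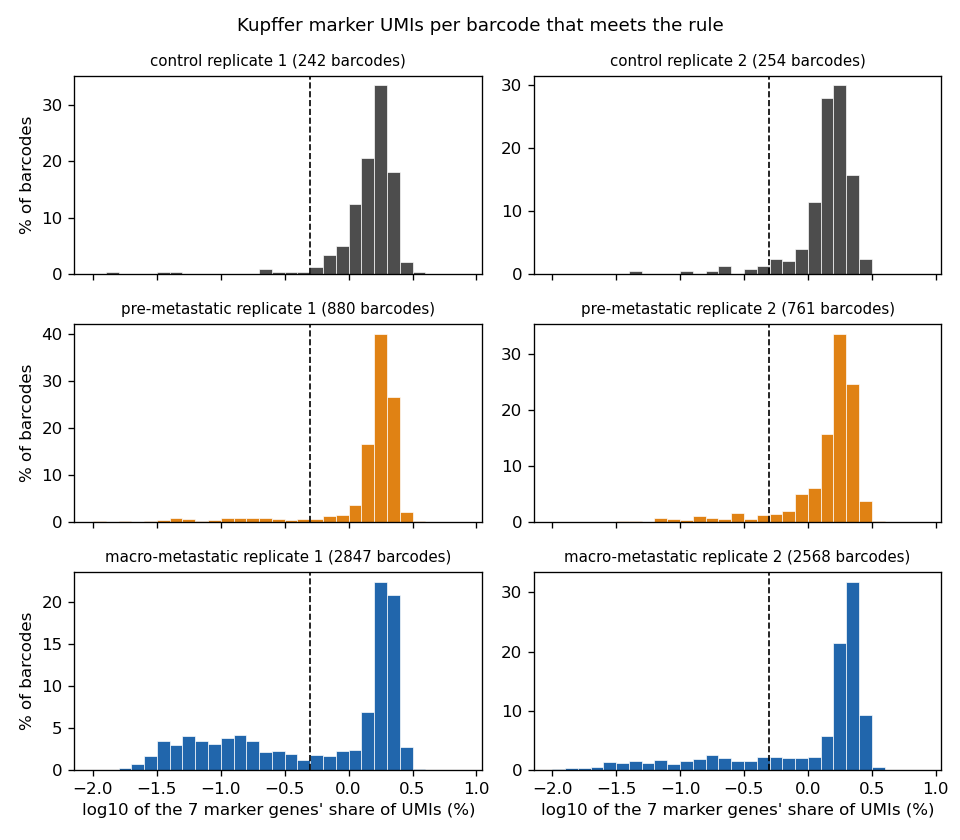
Share of UMIs from the 7 Kupffer marker genes per member barcode (log10 of the percentage, horizontal) against the percentage of the library's members (vertical), 1 panel per library, with the 0.5% limit dashed. Only the macro-metastatic libraries show a large low mode: 61.3% and 77.5% of their members lie above the limit, against 96.7% and 96.1% of control members.

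Markers of other cell types moved with the groups. The 12 neutrophil markers summed to 3491 and 2095 CPM in macro-metastatic members, against 216 and 200.1 CPM in control members, and pre-metastatic members held 476 and 538 CPM. Among marker-rich barcodes the same sum was 1015 and 817 CPM in macro-metastatic, against 143 and 198 CPM in control libraries, and in B cell barcodes it was 1006 and 1237 CPM, against 24.5 and 102 CPM. The 8 monocyte markers summed to 1462 and 843 CPM in macro-metastatic, against 331 and 503 CPM in control members, with 811 and 871 CPM in pre-metastatic ones, and to 447 and 307 CPM, against 283 and 317 CPM, in marker-rich barcodes. The 6 stellate and fibroblast markers reached 129 and 433 CPM in macro-metastatic members and 30.4 and 38.5 CPM in marker-rich ones, against 24.5 and 68.8 CPM in control members. Sinusoidal endothelial markers outside the rule ranged from 608 to 829 CPM in macro-metastatic and from 945 to 981 CPM in control members. The 12 hepatocyte markers summed to 1413 and 1287 CPM in macro-metastatic, against 4118 and 1766 CPM in control members, with 2038 and 2137 CPM in pre-metastatic ones, and Cps1, Ttr, Alb and Fabp1 were called lower in macro-metastatic members. In marker-rich barcodes the hepatocyte sum was 1584 and 1240 CPM for macro-metastatic, against 1753 and 1767 CPM for control libraries. The 5 erythroid markers summed to 84.8 and 10.4 CPM in macro-metastatic, against 2.94 and 1.71 CPM in control members, with 48.8 and 157 CPM in pre-metastatic ones, and none was called. Markers of T, B, NK and dendritic cells and of epithelial tumours gave no called gene in macro-metastatic against control members. Only 3 of 6 B cell, 4 of 6 NK cell and 3 of 6 tumour markers could be tested there. The 6 tumour markers summed to 5.01 and 36.6 CPM in macro-metastatic, against 6.36 and 2.27 CPM in control members. Among marker-rich barcodes Skap1, Gzma, Ncr1 and Zbtb46 were called lower, none of these markers was called higher, and no tumour marker could be tested. No marker of the lists given with sums was at 0 in all libraries, and their part in the results below was not tested.

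Kupffer marker barcodes were a larger part of the captured cells at each stage. Their share of kept barcodes was 2.55% and 2.45% for the control replicates, 8.53% and 7.15% for the pre-metastatic and 23.6% and 18.3% for the macro-metastatic replicates. The group means were 2.50% ± 0.0709 for control, 7.84% ± 0.975 for pre-metastatic and 21.0% ± 3.79 for macro-metastatic livers (SD, n = 2 each). The groups did not overlap, and the binomial intervals of the libraries (Wilson, 95%, covering counting error only) were narrow beside these gaps, for example 22.9% to 24.4% in macro-metastatic replicate 1 and 2.25% to 2.89% in control replicate 1. Marker-rich barcodes alone gave 2.41% ± 0.0795 for control, 7.23% ± 0.895 for pre-metastatic and 14.3% ± 0.233 for macro-metastatic livers. With every barcode thinned to 1000 UMIs before the rule, the shares were 2.67% ± 0.0461, 8.24% ± 1.17 and 17.6% ± 0.150 for the same stages. With 2 libraries against 2 an exact permutation test cannot go below p = 0.3333, and none was run. The rule chose the members by these markers, so the shares are a description of captured barcodes, and losses in digestion and dead-cell removal cannot be told apart from numbers in the liver.

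**Figure D2:**
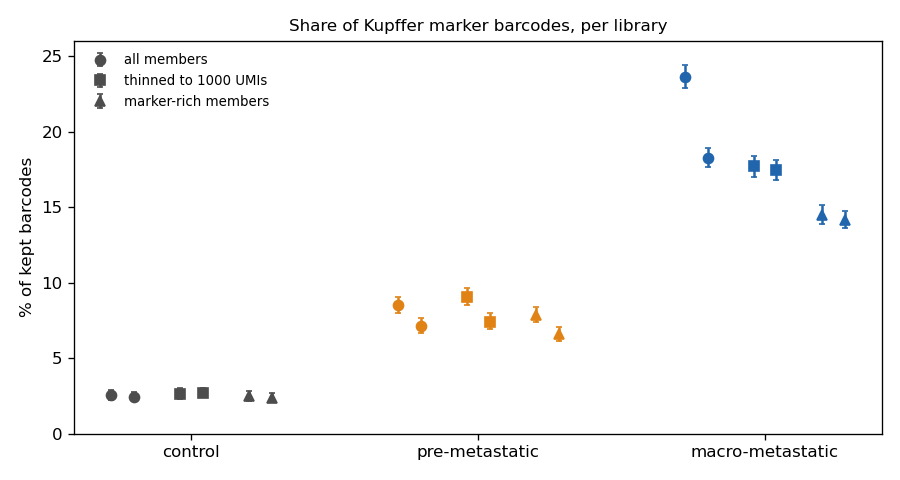
Share of kept barcodes (percent, vertical) that were Kupffer marker barcodes in each of the 6 libraries, by group, with Wilson 95% intervals. The marker shapes give all members, marker-rich barcodes and barcodes thinned to 1000 UMIs, and all 3 series keep the order control, pre-metastatic, macro-metastatic.

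The edges of the rule were filled unequally. Exactly 3 markers were found in 13 and 13 control, 53 and 47 pre-metastatic and 630 and 430 macro-metastatic members, and 25 and 24 control, 161 and 139 pre-metastatic and 1242 and 1068 macro-metastatic barcodes missed the rule with 2 markers. An endothelial share from 0.15% to 0.2% was held by 26 and 13 control, 27 and 58 pre-metastatic and 39 and 41 macro-metastatic members, and 30 and 22, 31 and 47, and 13 and 21 barcodes of the same groups lay just outside with 0.2% to 0.25%. Among barcodes that met the rest of the rule, the endothelial-poor ones were 32.1% and 36.8% for control, 61.4% and 44.1% for pre-metastatic and 83.3% and 78.9% for macro-metastatic replicates. These shares follow from the rule and carry no test.

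The 7 marker genes of the rule are given as levels only, in marker-rich barcodes. Clec4f, a Kupffer-restricted galactose receptor, stood at 2668 and 2877 CPM among control, at 2009.6 and 2200.4 CPM among pre-metastatic and at 6505 and 5826 CPM among macro-metastatic members. Vsig4, a complement receptor for bacteria, stood at 3436 and 3288 CPM among control, at 3529 and 3655 CPM among pre-metastatic and at 2596 and 2822 CPM among macro-metastatic members there. Cd5l, a secreted scavenger protein, stood at 5022 and 4081 CPM among control, at 5682 and 5378 CPM among pre-metastatic and at 5414 and 6000.0 CPM among macro-metastatic members, and Timd4, a receptor for dying cells, stood at 1286 and 1029.8 CPM among control, at 1319 and 1141 CPM among pre-metastatic and at 959 and 1090.4 CPM among macro-metastatic members. C6, a late complement component, stood at 1117 and 979 CPM among control, at 1830.4 and 1403 CPM among pre-metastatic and at 1849.7 and 1747 CPM among macro-metastatic members. Cd163, the receptor for haemoglobin with haptoglobin, stood at 1513 and 1496 CPM among control, at 2061 and 1890.1 CPM among pre-metastatic and at 1752 and 2502 CPM among macro-metastatic members. Fcna, ficolin A, stood at 1305 and 1261 CPM among control, at 1146 and 1111 CPM among pre-metastatic and at 1899.9 and 2088 CPM among macro-metastatic members. The macro-metastatic libraries held the highest levels of Clec4f and Fcna and the lowest of Vsig4. For Cd5l, C6 and Cd163 both control libraries lay below all the others, and the pre-metastatic and macro-metastatic libraries overlapped. For Timd4 the control libraries overlapped with both other groups.

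Levels were compared after summing the members' UMIs per library and scaling the sums (TMM), with edgeR's quasi-likelihood test over 12283 genes and Benjamini-Hochberg adjustment. Macro-metastatic against control members differed in 2582 genes at an adjusted p under 0.05, or 21.0% of those tested, with 1652 higher (13.4%) and 930 lower (7.57%). The median log2 fold change over all genes was 0.0037. Marker-rich barcodes alone gave 2303 of 11757 genes (19.6%), 1558 higher (13.3%) and 745 lower (6.34%), of which 1925 were also called among all members, each in the same direction. These shares of higher and lower genes are the background for the counts of listed genes below, in all members and in marker-rich barcodes. Without TMM scaling the split was 1381 higher and 1542 lower, and the median of all genes was −0.131. Leaving out control replicate 1 left 489 genes called and leaving out control replicate 2 left 1199, and the count without pre-metastatic replicate 1 or 2 was 1437 or 1391. Where a gene is said below to lose its call without a library, the value in parentheses is its log2 fold change in that fit.

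B cell barcodes of the same libraries served to measure what moved in another cell class. They numbered 1278, from 92 in macro-metastatic replicate 1 to 321 in control replicate 2. B cells changed in 587 of 6821 genes between macro-metastatic and control libraries, 429 of them higher and 158 lower. The change in Kupffer marker barcodes differed from that in B cells in 263 of 10084 genes (2.61%), by the interaction term of a fit with the library as a block, 122 above and 141 below. These counts, and the 429 and 158 of 6821 in B cells, are the background for the list counts against B cells and in B cells below. Among 9859 genes in both tests, 169 of the 2301 called in Kupffer marker barcodes also differed from B cells, which is 7.34% of those and 64.5% of the 262 differences. A gene whose difference from B cells was not called may have moved in both classes or be too rare in B cells for the test. A gene called below B cells may be one that they hold at a trace level, where a few UMIs make a large log2 change. Which of these applies was not tested.

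Slc40a1 (ENSMUSG00000025993, chr1:45908068-45926523, GRCm38), which encodes the iron exporter ferroportin, stood at 4217 and 3759 CPM among control, at 3549 and 3420.1 CPM among pre-metastatic and at 867 and 869 CPM among macro-metastatic members. Both macro-metastatic libraries lay below the other 4. Its level in macro-metastatic against control members fell with a log2 fold change −2.20, SE 0.13, adjusted p = 0.000683, and with −2.01 against pre-metastatic members. Marker-rich barcodes gave −1.88, and B cells changed the other way by 1.15 at a low level, so that the difference from B cells was −3.43, SE 0.46, adjusted p = 0.000164. After thinning to 1000 UMIs, Slc40a1 was found in 98.1% and 94.9% of the control, 95.4% and 93.9% of the pre-metastatic and 57.3% and 54.8% of the macro-metastatic replicates' marker-rich barcodes, and in 0.461% to 2.05% of B cell barcodes. Without thinning, the marker-rich shares were 97.9% and 99.2%, 99.0% and 97.6%, and 94.8% and 91.6% in the same order.

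Other iron genes moved both ways. Among 16 tested genes of iron and haem handling, 5 were called higher and 3 lower in macro-metastatic than in control members. The background was 13.4% and 7.57%, the median log2 fold change of the list was 0.13, and marker-rich barcodes gave 7 higher and 2 lower. Hmox1, the haem-degrading enzyme, stood at 3179 and 2558 CPM among control, at 1929 and 1866 CPM among pre-metastatic and at 1414 and 1969.6 CPM among macro-metastatic members, and macro-metastatic replicate 2 overlapped the pre-metastatic libraries. Hmox1 was called lower (log2 fold change −0.76, SE 0.19, adjusted p = 0.0338) among all members, not among marker-rich ones (−0.55). Bach1, a repressor of Hmox1, was called higher (log2 fold change 0.79, SE 0.16, adjusted p = 0.0173), as was Slc11a1, the phagosomal metal transporter NRAMP1 (log2 fold change 0.55, SE 0.13, adjusted p = 0.0269). Fth1, Ftl1 and Tfrc were the other called rises and Ireb2 the other called fall, and Fth1 was not called among marker-rich barcodes. The change was called below that in B cells for Hmox1, Slc40a1 and Slc11a1. Hmox1 (−0.59), Bach1 (0.67) and Slc11a1 (0.55) were not called without control replicate 1. The log2 fold changes of Hmox1 (−0.90) and Slc11a1 (0.56) were no longer called without control replicate 2. Leaving out macro-metastatic replicate 1 ended the call of Hmox1 (−0.55). The call lost without macro-metastatic replicate 2 was Slc11a1 (0.50). Hmox1 (−0.74) and Slc11a1 (0.57) were not called without pre-metastatic replicate 1. The log2 fold changes of Hmox1 (−0.74) and Slc11a1 (0.57) were no longer called without pre-metastatic replicate 2. Calls also ended for Slc11a1 (0.44) with GC content and transcript length corrected for, Hmox1 (−0.44), Bach1 (0.56) and Slc11a1 (0.68) after thinning to 1000 UMIs, Slc11a1 (0.42) without TMM scaling, Hmox1 (−0.71) with mitochondrial UMIs under 10% and Hmox1 (−0.65) with at least 4 markers.

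Of 20 Kupffer identity genes that the rule did not use, 4 were called higher and 3 lower in macro-metastatic than in control members, near the background of 13.4% and 7.57%, with a median log2 fold change of −0.06. Marco, a scavenger receptor for bacteria and particles, stood at 77.1 and 53.7 CPM among control, at 213 and 159.7 CPM among pre-metastatic and at 245 and 304 CPM among macro-metastatic members. The pre-metastatic libraries lay between the other groups, and the rise over control was called in macro-metastatic members (log2 fold change 2.07, SE 0.23, adjusted p = 0.00246). Id1, an inhibitor of helix-loop-helix factors and a target of bone morphogenetic protein signals, stood at 199 and 163 CPM among control, at 169 and 155 CPM among pre-metastatic and at 42.9 and 58.4 CPM among macro-metastatic members, and its macro-metastatic level fell (log2 fold change −1.84, SE 0.19, adjusted p = 0.00177). Id3, its Kupffer-defining relative, was called higher (log2 fold change 0.64, SE 0.13, adjusted p = 0.0185). Hpgd, the enzyme that inactivates prostaglandins, had 516 and 415 CPM in the macro-metastatic libraries, against 1091 and 1009 CPM in the control libraries, a called fall (log2 fold change −1.17, SE 0.15, adjusted p = 0.00339). Adgre1, which encodes F4/80, fell with a log2 fold change of −0.66 among all members and was not called among marker-rich ones (−0.37), where Marco, Id1, Id3 and Hpgd stayed called. Against B cells the changes of Csf1r, Vcam1, Pilra, Folr2 and Adgre1 were called lower and none of the 20 higher. B cells held the 20 genes at only 2.18% of the members' summed level in control and 5.24% of it in macro-metastatic libraries. Leaving out control replicate 1 ended the call of Id3 (0.69) and Adgre1 (−0.54). The call lost without control replicate 2 was Id3 (0.60). Adgre1 (−0.64) was not called without pre-metastatic replicate 1. The log2 fold change of Adgre1 (−0.65) was no longer called without pre-metastatic replicate 2. The test was also missed by Id3 (0.28) and Adgre1 (−0.39) with GC content and transcript length corrected for.

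Among 16 Kupffer transcription factors and niche receptors, 3 were called higher and 1 lower, near the background of 13.4% and 7.57%, and marker-rich barcodes gave 2 higher and 2 lower. The one that fell was Maf, a factor of resident macrophages, which stood at 1662 and 2424 CPM among control, at 2242 and 2281 CPM among pre-metastatic and at 969 and 899 CPM among macro-metastatic members. The macro-metastatic libraries lay below the other 4 (log2 fold change −1.13, SE 0.19, adjusted p = 0.00932 against control), and B cells changed by 0.54, a called difference of −1.78, SE 0.29, adjusted p = 0.00118. Notch1, the receptor of a sinusoidal signal, was called higher (log2 fold change 1.04, SE 0.17, adjusted p = 0.00898), as was Acvrl1, a receptor for bone morphogenetic proteins of the endothelium (log2 fold change 0.78, SE 0.18, adjusted p = 0.0259). Rbpj, which carries Notch signals to DNA, was called among all members and not among marker-rich ones. Marker-rich barcodes kept Notch1 (0.99), Acvrl1 (1.00) and Maf (−0.88). Leaving out control replicate 1 ended the call of Notch1 (1.03) and Acvrl1 (1.02). The call lost without control replicate 2 was Acvrl1 (0.60). Acvrl1 (0.75) was not called without macro-metastatic replicate 2. The log2 fold change of Acvrl1 (0.80) was no longer called without pre-metastatic replicate 1. Leaving out pre-metastatic replicate 2 ended the call of Acvrl1 (0.80). Also not called were Acvrl1 (0.38) with GC content and transcript length corrected for and Notch1 (0.99) after thinning to 1000 UMIs. Acvrl1 had a log2 fold change of 1.71 after thinning to 1000 UMIs.

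Scavenger receptors as a group stayed near the background, with 2 of 14 called higher, 1 lower and a median log2 fold change of 0.01. Cd209f, a C-type lectin of resident macrophages, stood at 174 and 167 CPM among control, at 53.9 and 89.2 CPM among pre-metastatic and at 18.1 and 33.7 CPM among macro-metastatic members, so that the levels of the 3 groups did not overlap. Its fall in macro-metastatic members was called (log2 fold change −2.72, SE 0.35, adjusted p = 0.00369). Scarb1, the receptor for high-density lipoprotein, had 353 and 257 CPM in the macro-metastatic libraries, against 74.2 and 101 CPM in the control libraries (log2 fold change 1.80, SE 0.21, adjusted p = 0.00275). Stab1 was the other called rise among all members and was not called among marker-rich ones, which gave 3 higher and 1 lower. Cd68, Msr1, Sirpa and Colec12 changed below B cells by the called interaction and none of the 14 above.

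**Figure D3:**
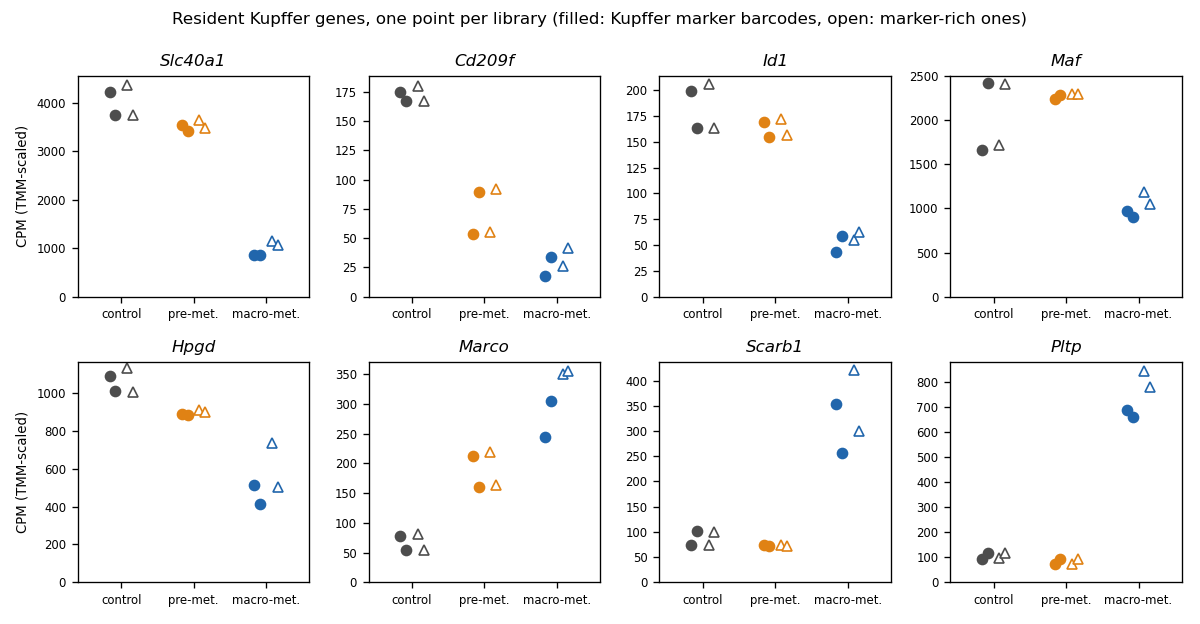
Level of 8 Kupffer genes outside the rule (TMM-scaled CPM, vertical, from 0) in each library, by group in the order control, pre-metastatic, macro-metastatic; filled points are all members and open points marker-rich barcodes. Slc40a1, Cd209f, Id1, Maf and Hpgd are lower in both macro-metastatic libraries than in both control libraries, and Marco, Scarb1 and Pltp higher, in both sets of barcodes.

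Most inflammatory cytokine and chemokine genes rose in macro-metastatic members. Of 21 tested, 16 were called higher and 0 lower in the macro-metastatic than in the control libraries, with a median log2 fold change of 2.09, and marker-rich barcodes gave the same counts with a median of 2.10. Cxcl1 (ENSMUSG00000029380, chr5:90891241-90893115), a chemokine that draws neutrophils, stood at 535 and 477 CPM among control, at 580.4 and 789 CPM among pre-metastatic and at 4014 and 2780.3 CPM among macro-metastatic members, with both macro-metastatic libraries above the other 4 (log2 fold change 2.75, SE 0.24, adjusted p = 0.00113 against control). Il1a, which encodes interleukin 1 alpha, stood at 321 and 395 CPM among control, at 537 and 667 CPM among pre-metastatic and at 2739 and 1819 CPM among macro-metastatic members (log2 fold change 2.67, SE 0.24, adjusted p = 0.00125). Ccl2 and Ccl7 encode monocyte chemokines, with log2 fold changes of 2.09 and 3.48, and Ccl9, a myeloid chemokine, had the smallest adjusted p of the list (log2 fold change 3.16, SE 0.21, adjusted p = 0.000725). Cxcl3, a further neutrophil chemokine, stood at 0 and 3.25 CPM among control, at 2.72 and 2.50 CPM among pre-metastatic and at 157 and 66.6 CPM among macro-metastatic members, with 0 and 6 UMIs in the control libraries. Il1b, Tnf, Il6, Cxcl2, Cxcl10, Cxcl13, Cxcl16, Ccl4, Ccl6 and Ccl12 were the other called rises, and Ccl12 was not called among marker-rich barcodes, where Ccl3 was. The call lost without control replicate 1 was Cxcl3 (5.11).

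These genes also rose in B cell barcodes. The list summed to 5.31% of the members' level in macro-metastatic B cells, against 1.60% of it in control B cells, and the 10 of 21 list genes that could be tested in B cells had a median log2 fold change of 3.52 there, a set of genes unlike the 21 behind the median in members. The change in Kupffer marker barcodes was below that in B cells, by the called interaction, for Ccl6, Cxcl2, Cxcl16, Ccl3, Ccl4 and Ccl24, and above it for none of 20 genes tested. Cxcl1 was found in 26.2% and 18.8% of the control, 30.7% and 35.3% of the pre-metastatic and 73.9% and 67.3% of the macro-metastatic replicates' marker-rich barcodes thinned to 1000 UMIs, and in 0% to 8.79% of B cell barcodes.

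Promoters are shown here because the cytokine genes and the feedback regulators of NF-kB rose in the same libraries and several carry the letters that NF-kB is known to bind. The letters GGGA, any base, TT, any base and CC, a form of the kappa-B motif, were searched on both strands in the 250 bases before each gene's start (RefSeq promoters, GRCm38.p6), with no other motif counted at the same place. They were found in 322 of 32851 promoters (0.980%), or 306 of 27025 genes (1.13%). Of the 16 inflammatory genes with a promoter sequence 5 held a match, namely Cxcl1, Cxcl2, Cxcl3, Cxcl10 and Il6. They were 5 of the 12 of these genes called higher. Of 11 feedback and inflammasome genes with a promoter sequence, Casp4, Nfkb2, Nfkbia and Tnip1 held a match, as did 3 of the 9 called higher. Both lists were chosen by known function, with earlier results of these data known. Their shares beside that of all genes are therefore no test of NF-kB. A stretch of 150 bases is printed for 3 neutrophil chemokine genes and for Nfkbia, 5′ to 3′ on the gene's strand, with the match in capitals. The stretches are chr5:90891095-90891244 (+) for Cxcl1, chr5:90903749-90903898 (+) for Cxcl2, chr5:90785951-90786100 (+) for Cxcl3 and chr12:55492648-55492797 (−) for Nfkbia. The match ends 62, 88, 64 and 20 bases before the start, and in Nfkbia it lies on the opposite strand. A match is a description of the letters and not of binding.
Cxcl1: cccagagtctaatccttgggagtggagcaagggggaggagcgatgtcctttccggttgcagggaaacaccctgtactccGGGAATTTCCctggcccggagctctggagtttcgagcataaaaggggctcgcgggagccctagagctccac
Cxcl2: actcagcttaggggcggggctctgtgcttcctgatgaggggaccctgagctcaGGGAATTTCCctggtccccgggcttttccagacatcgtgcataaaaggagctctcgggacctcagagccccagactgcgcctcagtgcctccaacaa
Cxcl3: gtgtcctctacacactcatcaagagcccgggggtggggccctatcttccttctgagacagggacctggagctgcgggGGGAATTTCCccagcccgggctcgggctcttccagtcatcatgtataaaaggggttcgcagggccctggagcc
Nfkbia: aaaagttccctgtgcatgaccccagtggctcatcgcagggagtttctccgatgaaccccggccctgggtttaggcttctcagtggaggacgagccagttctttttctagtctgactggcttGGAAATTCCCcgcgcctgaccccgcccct

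NF-kB feedback and inflammasome genes rose beside the cytokines. Of 15 tested, 12 were called higher and 0 lower in the macro-metastatic than in the control libraries, with a median log2 fold change of 1.44, and marker-rich barcodes gave 12 higher and 0 lower. Nlrp3, the sensor of the inflammasome, stood at 254 and 369 CPM among control, at 429 and 532 CPM among pre-metastatic and at 1490.4 and 1309.7 CPM among macro-metastatic members (log2 fold change 2.17, SE 0.21, adjusted p = 0.00151). Tnfaip3, which encodes the ubiquitin-editing inhibitor A20, had 1244 and 973 CPM in the macro-metastatic libraries, against 352 and 339.6 CPM in the control libraries (log2 fold change 1.68, SE 0.18, adjusted p = 0.00195). It was the gene of this list whose change exceeded that in B cells (1.41, SE 0.21, adjusted p = 0.000619). Casp4, known as caspase 11 in mice, the sensor of cytosolic lipopolysaccharide, rose by 1.63 and Bcl3, an atypical inhibitor of NF-kB, by 2.61 on the log2 scale. Relb, Tnip1, Nfkbia, Pycard, Ptgs2, Nfkbiz, Birc3 and Gsdmd were the other called rises. Calls also ended for Bcl3 (2.52) after thinning to 1000 UMIs. Bcl3 had a log2 fold change of 4.12 with mitochondrial UMIs under 10%.

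Suppressive genes rose in the same libraries, with 10 of 21 tested called higher and 2 lower, beside the background of 13.4% and 7.57%. Their median log2 fold change was 1.56, and 9 of 20 were higher and 2 lower among marker-rich barcodes. Il10 (ENSMUSG00000016529, chr1:131019845-131024974), which encodes the cytokine interleukin 10, stood at 21.2 and 9.76 CPM among control, at 64.1 and 49.5 CPM among pre-metastatic and at 211 and 227 CPM among macro-metastatic members. Its 3 groups did not overlap, and macro-metastatic exceeded control members (log2 fold change 3.80, SE 0.30, adjusted p = 0.001). Il10 was found in 1.90% and 0.855% of the control, 5.34% and 3.05% of the pre-metastatic and 11.3% and 13.8% of the macro-metastatic replicates' marker-rich barcodes at 1000 UMIs, in 0% to 1.10% of B cell barcodes, and unthinned in 7.26% and 4.10%, 17.4% and 13.7%, and 32.0% and 35.6% of marker-rich barcodes in the same order of groups. Il1rn, the antagonist of the interleukin 1 receptor, stood at 28.9 and 27.7 CPM among control, at 60.6 and 78.0 CPM among pre-metastatic and at 413 and 257 CPM among macro-metastatic members (log2 fold change 3.57, SE 0.28, adjusted p = 0.001). Il4ra, a chain of the receptors for interleukins 4 and 13, had 106 and 98.3 CPM in the macro-metastatic libraries, against 8.67 and 6.51 CPM in the control libraries (log2 fold change 3.74, SE 0.20, adjusted p = 0.000599). Cd274, which encodes the checkpoint ligand PD-L1, stood at 55.9 and 39.1 CPM among control, at 74.3 and 79.5 CPM among pre-metastatic and at 267 and 192 CPM among macro-metastatic members (log2 fold change 2.27, SE 0.23, adjusted p = 0.00162), and its change exceeded that in B cells (1.69, SE 0.29, adjusted p = 0.00218). Arg1's change also exceeded that in B cells, but Arg1 was not called in all members or in marker-rich barcodes. The changes of Wfdc17 and Arg2 were below those in B cells. In B cells 7 of the 14 list genes tested were called higher, beside 429 of 6821 genes over all, with a median log2 fold change of 1.69. Cd200r1 and Il10ra, receptors for inhibitory signals, were the called falls. 

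Pattern recognition receptors gave 6 of 20 higher and 3 lower among all members, beside the background of 13.4% and 7.57%. Marker-rich barcodes gave 6 higher and 0 lower. Cd14, the co-receptor for lipopolysaccharide, had 1969 and 1888 CPM in the macro-metastatic libraries, against 551 and 527 CPM in the control libraries, with 868 and 875 CPM in the pre-metastatic libraries (log2 fold change 1.84, SE 0.12, adjusted p = 0.000714). Tlr2, a receptor for bacterial lipopeptides, rose by 1.65 on the log2 scale. Cd14 was found in B cell barcodes with 123 UMIs in the macro-metastatic libraries and 2 in the control libraries. Cd14 and Clec4n changed below B cells by the called interaction. The called falls were Cgas, Tlr3 and Nod1, sensors of nucleic acids and of peptidoglycan. 

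Interferon-stimulated genes gave 5 of 24 higher and 1 lower in macro-metastatic than in control members, beside the background of 13.4% and 7.57%, and the same counts among marker-rich barcodes. Rsad2, which encodes the antiviral enzyme viperin, stood at 95.9 and 84.6 CPM among control, at 109 and 164 CPM among pre-metastatic and at 919.7 and 555 CPM among macro-metastatic members (log2 fold change 3.03, SE 0.31, adjusted p = 0.00162). Isg15, a ubiquitin-like modifier, had 179 and 37.8 CPM in the macro-metastatic libraries, against 4.82 and 7.05 CPM in the control libraries, with macro-metastatic replicate 1 far above replicate 2 (log2 fold change 4.20, SE 0.85, adjusted p = 0.0173). Ifit1, Oas1a and Ifitm3 were the other rises and Oas2 the fall, and Ifitm3 was the gene of the list called below B cells. Isg15 (3.95) was not called without control replicate 1. The log2 fold change of Isg15 (4.50) was no longer called without control replicate 2. Isg15 had a log2 fold change of 2.67 without macro-metastatic replicate 1.

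**Figure D4:**
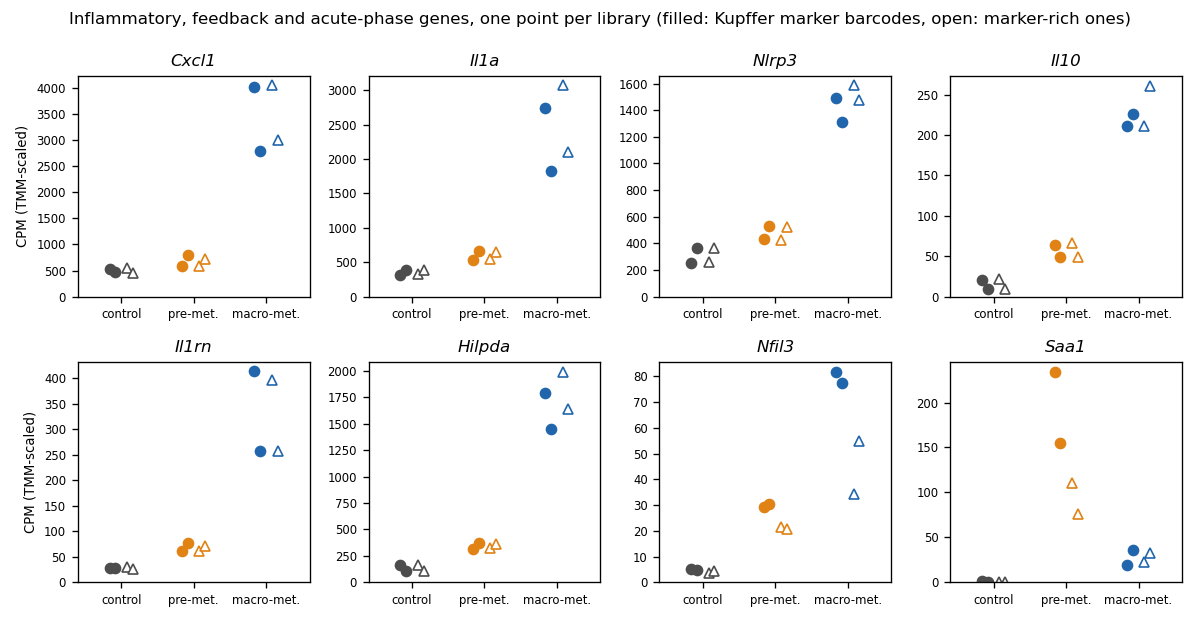
Level of 8 inflammatory, suppressive, metabolic and acute-phase genes (TMM-scaled CPM, vertical, from 0) in each library, by group in the order control, pre-metastatic, macro-metastatic; filled points are all members and open points marker-rich barcodes. Cxcl1, Il1a, Nlrp3, Il10, Il1rn, Hilpda and Nfil3 are highest in both macro-metastatic libraries, and Saa1 is highest in both pre-metastatic libraries.

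Most genes of glycolysis and of the response to low oxygen rose as well. Of 25 tested, 18 were called higher and 0 lower in the macro-metastatic than in the control libraries, with a median log2 fold change of 1.28, and marker-rich barcodes gave 16 of 24 higher and 0 lower. Hilpda, a hypoxia-induced inhibitor of lipolysis, stood at 161 and 108 CPM among control, at 317 and 369 CPM among pre-metastatic and at 1791 and 1454 CPM among macro-metastatic members (log2 fold change 3.59, SE 0.23, adjusted p = 0.000714), and its change exceeded that in B cells (1.45, SE 0.30, adjusted p = 0.0093), as did that of Tpi1, the enzyme that interconverts triose phosphates. Slc2a1, which encodes the glucose transporter GLUT1, rose by 3.33, Hk2, a hexokinase, by 1.65 and Pkm, a pyruvate kinase, by 2.44 on the log2 scale. Gapdh rose by 2.98, and 41.7% of the 31-base words near its 3′ end are shared with pseudogenes, so its count is uncertain. B cells changed by 2.09 in Hilpda and by 1.52 in Pkm. The letters ACGTG, the core of the hypoxia response element, were found in the 250 bases before the start of 16 of the 24 list genes with a promoter sequence (66.7%), against 18.5% of all genes, on either strand. Of the 18 called higher, 12 held them (66.7%). The list was chosen by known function, with earlier results of these data known, so its share is no test of the response to low oxygen. 

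Ribosomal and respiratory genes rose in part. Of 25 ribosomal protein genes 15 were called higher and 0 lower, in all members and in marker-rich barcodes, with a median log2 fold change of 0.77. Rpl28, a protein of the large subunit, stood at 27.9 and 36.9 CPM among control, at 28.0 and 30.6 CPM among pre-metastatic and at 622 and 565 CPM among macro-metastatic members (log2 fold change 4.20, SE 0.18, adjusted p = 0.000478), and B cells changed in it by 3.70. Rpl8 rose by 4.20, with B cells at 3.31, and Rps14 by 2.32, with B cells at 1.86. In B cells 12 of the 25 were called higher, with a median of 0.53, beside 429 of 6821 genes over all. None of the 25 differed from B cells by the called interaction. Of 30 nuclear genes of oxidative phosphorylation 11 were called higher and 0 lower, with 4 of 29 called higher and a median of 0.0025 in B cells and no called difference between the classes, for example Ndufv1 of complex I (log2 fold change 3.54, SE 0.38, adjusted p = 0.00191, with 7 and 2 UMIs in the control libraries). The test was also missed by Ndufv1 (2.33) after thinning to 1000 UMIs.

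Other genes that are not specific to macrophages also rose in both classes. Ppp1ca, a catalytic subunit of protein phosphatase 1, had 245 and 129 CPM in the macro-metastatic libraries, against 8.67 and 10.8 CPM in the control libraries (log2 fold change 4.27, SE 0.37, adjusted p = 0.00116), and B cells changed by 3.01. Psmb8, an immunoproteasome subunit, rose by 2.91, with B cells at 1.91. H2-DMa, a chaperone of MHC class II loading, rose by 3.51, with B cells at 3.20. Emp3 and Crip1, 2 small proteins of membrane and cytosol, rose by 3.39 and 3.01, with B cells at 3.25 and 2.30. None of these 5 differed from B cells by the called interaction. Of the 12 tested genes of the MHC class II list, which includes costimulatory genes, H2-DMa, Cd80 and Cd40 were the called rises. The whole list summed to 6985 and 15160 CPM in macro-metastatic replicates 1 and 2, against 11153 and 5830 CPM in control replicates 1 and 2. Of the 17 genes of the MHC class I list, which includes proteasome and chaperone genes, Psmb8, H2-Q7, Calr and Psmb10 rose and H2-M3 fell. Over all genes 13.4% were called higher and 7.57% lower. Cd40 and H2-M3 were not called among marker-rich barcodes, where 3 genes of the first list and 4 of the second were higher and 0 lower. 

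Lipid genes split between cholesterol handling and the lipid-associated macrophage program. Of 17 genes of cholesterol efflux and LXR targets 7 were called higher and 0 lower, with a median log2 fold change of 0.40, and 6 of 16 higher and 0 lower among marker-rich barcodes. Pltp, which encodes the phospholipid transfer protein, stood at 93.9 and 119 CPM among control, at 71.5 and 94.5 CPM among pre-metastatic and at 688 and 659 CPM among macro-metastatic members (log2 fold change 2.66, SE 0.19, adjusted p = 0.000782), with the 2 macro-metastatic libraries above the other 4. Its gene overlaps Ctsa, a lysosomal protease that rose by 2.82, on the opposite strand, and whether reads were counted by strand is not given in the sources used here. Lpcat3, which remodels phospholipids, rose by 1.39. The lipid-associated macrophage genes gave 11 of 18 higher and 1 lower with a median of 1.40 among all members, and 7 of 17 higher and 2 lower with a median of 0.67 among marker-rich barcodes. Vim, an intermediate filament, had 1524 and 1503 CPM in the macro-metastatic libraries, against 422 and 411 CPM in the control libraries (log2 fold change 1.86, SE 0.16, adjusted p = 0.00106) and S100a6, a calcium-binding protein, 414 and 388 CPM in the macro-metastatic libraries, against 22.6 and 15.7 CPM in the control libraries (log2 fold change 4.38, SE 0.21, adjusted p = 0.000478). The rise of S100a6 was smaller among marker-rich barcodes (2.11), that of Vim was 1.67 there, and both exceeded the change in B cells. S100a4's did so too, while Lpl and the LXR target Apoe were below B cells. Lgals3, which encodes galectin 3, rose by 1.25. Lpl, lipoprotein lipase, stood at 788 and 693 CPM among control, at 424 and 754 CPM among pre-metastatic and at 385 and 352 CPM among macro-metastatic members, a called fall against control (log2 fold change −1.01, SE 0.26, adjusted p = 0.0342) with 1 pre-metastatic library at the control level. Leaving out control replicate 1 ended the call of Lpcat3 (1.51) and Lpl (−0.91). Calls lost without control replicate 2 were Lpcat3 (1.31) and Lpl (−1.08). Lpl (−1.08) was not called without macro-metastatic replicate 1. The log2 fold change of Lpl (−0.94) was no longer called without macro-metastatic replicate 2. Also not called were Lpl (−0.73) with GC content and transcript length corrected for and Lpcat3 (1.58) after thinning to 1000 UMIs. S100a6 had a log2 fold change of 2.49 after thinning to 1000 UMIs.

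Of 18 lysosomal genes 5 were called higher and 1 lower, beside the background of 13.4% and 7.57%. Marker-rich barcodes gave 7 higher and 1 lower. The rises included Ctsz, a cathepsin, which rose by 2.54 on the log2 scale. Phagocytosis and Fc receptor genes gave 2 of 15 higher and 1 lower with a median of 0.03, which is near the background of 13.4% and 7.57%, and 2 of 14 higher and 1 lower among marker-rich barcodes. Against B cells Ctsb and Grn of the lysosomal list and Fcer1g, Tyrobp, Fcgr3 and Axl of the phagocytosis list were called below, and no gene of either list above. Complement genes gave 5 of 13 higher and 1 lower, beside the same background, and 7 higher and 1 lower among marker-rich barcodes. C4b, the fourth component, had 661 and 526 CPM in the macro-metastatic libraries, against 135 and 180.1 CPM in the control libraries (log2 fold change 1.91, SE 0.22, adjusted p = 0.00246), and 57.7% of the 31-base words near its 3′ end are shared with a near copy, so its count is uncertain. Cfp, which encodes properdin, rose by 0.79, and C5ar1, the receptor for C5a, by 0.75. The changes of Cfp, C5ar1, C1qa, C1qb and C1qc were called below those in B cells, and none of the 13 was above. Cfb rose too, and its 3′ end is almost wholly shared with a readthrough gene. C1qa, a chain of C1q, was called higher (log2 fold change 0.67, SE 0.17, adjusted p = 0.0375), but had the opposite sign once GC content and transcript length were corrected for (−0.18). Leaving out control replicate 1 ended the call of Cfp (0.86), C5ar1 (0.54) and C1qa (0.46). The call lost without control replicate 2 was Cfp (0.74). C5ar1 (0.63) was not called without macro-metastatic replicate 1. The log2 fold change of C1qa (0.54) was no longer called without macro-metastatic replicate 2. Leaving out pre-metastatic replicate 1 ended the call of C5ar1 (0.77) and C1qa (0.69). Calls lost without pre-metastatic replicate 2 were C5ar1 (0.77) and C1qa (0.68). Calls also ended for Cfp (0.45) with GC content and transcript length corrected for, C5ar1 (0.59) after thinning to 1000 UMIs, C1qa (0.53) without TMM scaling and C1qa (0.59) with endothelial transcripts under 0.1%.

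Stress and redox genes rose unevenly. Metallothionein Mt1, a zinc-binding protein, had 698 and 1312 CPM in the macro-metastatic libraries, against 65.0 and 61.8 CPM in the control libraries (log2 fold change 3.99, SE 0.36, adjusted p = 0.00125) and Mt2 316 and 1012 CPM in the macro-metastatic libraries, against 5.30 and 7.59 CPM in the control libraries (log2 fold change 6.70, SE 0.77, adjusted p = 0.00246), with 11 and 14 UMIs of Mt2 in the control libraries. B cells rose more than Kupffer marker barcodes in Mt1 (−2.12, SE 0.53, adjusted p = 0.0369). Of 16 genes of cystine uptake and NRF2 targets 5 were called higher and 1 lower, beside the background of 13.4% and 7.57%. Marker-rich barcodes gave 6 of 15 higher and 0 lower. Sqstm1, an autophagy receptor, rose by 1.22, Txnrd1, thioredoxin reductase, by 1.35, Gpx1, a glutathione peroxidase, by 1.08, and Slc7a11, the cystine transporter, by 3.98. Slc7a11 had 4 and 5 UMIs in the control libraries. Mt2 (6.45), Gpx1 (1.10) and Slc7a11 (3.75) were not called without control replicate 1. The test was also missed by Gpx1 (0.50) with GC content and transcript length corrected for. Slc7a11 had a log2 fold change of 2.09 after thinning to 1000 UMIs.

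Immediate-early and heat-shock genes, which also respond to tissue digestion, moved both ways with 9 of 25 higher and 5 lower. The background was 13.4% and 7.57%, and marker-rich barcodes gave 10 higher and 4 lower. Against B cells Klf6 was above, and Egr1 and Hspa1b were below. Fosb rose (log2 fold change 2.78, SE 0.23, adjusted p = 0.00106), while Fos, its relative in the AP-1 factor, fell (log2 fold change −1.36, SE 0.13, adjusted p = 0.00135), with 1922 and 1777 CPM in the macro-metastatic libraries, against 4668 and 4823 CPM in the control libraries. B cells changed by 2.52 in Fosb and −1.52 in Fos. Klf2, a factor of quiescence, fell with a log2 fold change of −0.95, and Nr4a1, a nuclear receptor induced by many stimuli, rose by 1.96. Glucocorticoid-responsive genes gave 4 of 14 higher and 3 lower, beside the same background, and 4 higher and 2 lower among marker-rich barcodes. Nfil3 (ENSMUSG00000056749, chr13:52967209-52981073), a basic leucine zipper repressor, stood at 5.30 and 4.88 CPM among control, at 29.3 and 30.3 CPM among pre-metastatic and at 81.8 and 77.4 CPM among macro-metastatic members, 3 groups without overlap (log2 fold change 3.96, SE 0.19, adjusted p = 0.000478 against control). Its change exceeded that in B cells (2.43, SE 0.47, adjusted p = 0.00641), and Cebpd's was below. Tsc22d3, which encodes the glucocorticoid-induced leucine zipper GILZ, had 244 and 273 CPM in the macro-metastatic libraries, against 689 and 737 CPM in the control libraries (log2 fold change −1.46, SE 0.13, adjusted p = 0.00113), and B cells changed by −0.92. Sgk1, a kinase of the same response, rose by 0.94. The log2 fold changes of Nr4a1 (1.72) and Sgk1 (0.80) were no longer called without control replicate 1. Klf2 had a log2 fold change of −0.55 after thinning to 1000 UMIs.

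Cell cycle genes outside the rule gave 3 of 18 higher and 1 lower in members chosen for few cycling transcripts, near the background of 13.4% and 7.57%, and 2 of 17 higher and 1 lower among marker-rich barcodes. Cdkn1a, the cell cycle inhibitor p21, had 290.1 and 269 CPM in the macro-metastatic libraries, against 23.6 and 33.1 CPM in the control libraries (log2 fold change 3.31, SE 0.22, adjusted p = 0.000714). Ccnd3 was above and Ccnd1 below B cells by the called interaction, and neither was called in the members against control. Barcodes with 3 or more Kupffer markers that the cycling limit kept out numbered 52 and 45 for control, 58 and 58 for pre-metastatic and 460 and 404 for macro-metastatic replicates.

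**Figure D5:**
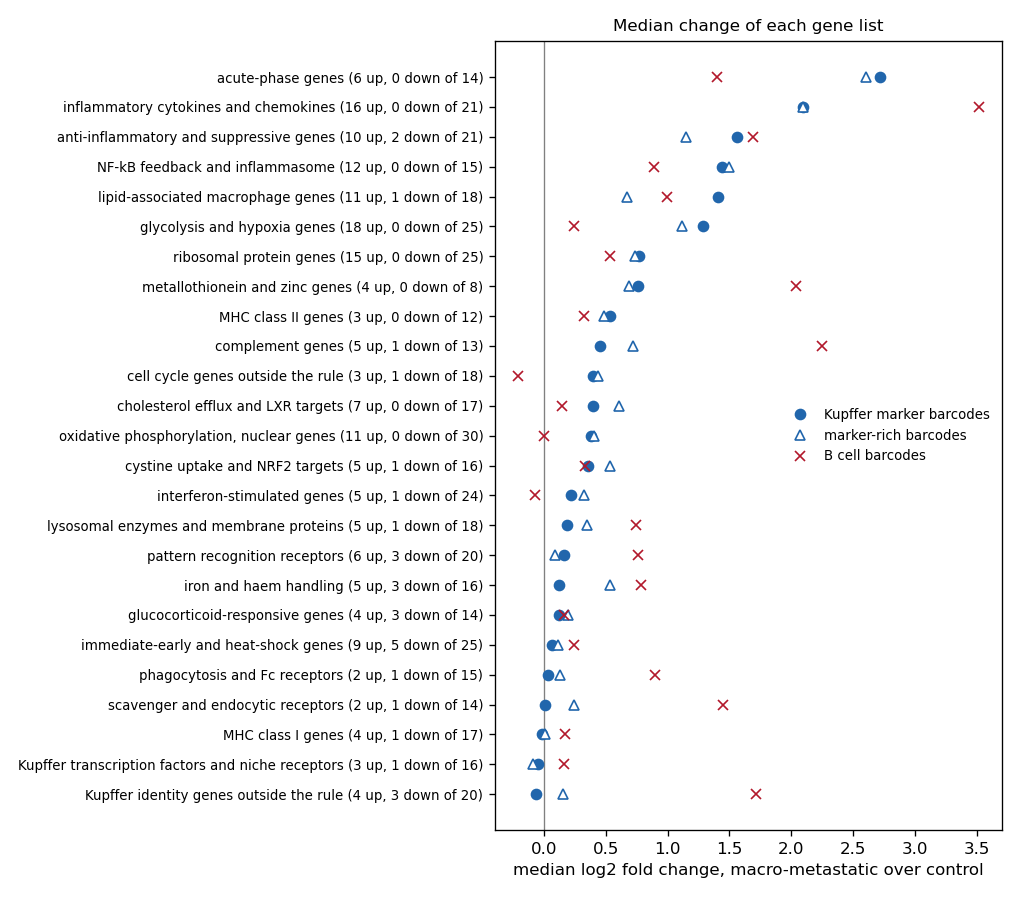
Median log2 fold change, macro-metastatic over control (horizontal), of each gene list in Kupffer marker barcodes, marker-rich barcodes and B cell barcodes, with the counts of called genes in Kupffer marker barcodes beside each name. Inflammatory genes stand at 2.09 and NF-kB genes at 1.44 in Kupffer marker barcodes, and B cells reach 3.52 over the 10 inflammatory genes tested in them; B cell medians cover fewer genes in most lists.

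Among the named genes with the largest changes, the collagens were not called among marker-rich barcodes. Col3a1 and Col1a2, fibrillar collagens of fibroblasts, had 36.9 and 156 CPM in the macro-metastatic libraries, against 0.482 and 3.25 CPM in the control libraries, and 54.8 and 172 CPM in the macro-metastatic libraries, against 0.963 and 5.42 CPM in the control libraries, and their log2 fold changes were 1.77 and 1.74 among marker-rich barcodes. Slpi, a protease inhibitor of neutrophils and epithelia, had 265 and 316 CPM in the macro-metastatic libraries, against 2.41 and 5.42 CPM in the control libraries (log2 fold change 6.24, SE 0.95, adjusted p = 0.00696) and B cells held 1268 UMIs in the macro-metastatic libraries and 3 in the control libraries. Emp1, a membrane protein, rose by 4.28. The falls were smaller and stayed called among marker-rich barcodes. Slc1a2, a glutamate transporter, had 12.9 and 15.3 CPM in the macro-metastatic libraries, against 47.2 and 49.4 CPM in the control libraries (log2 fold change −1.77, SE 0.16, adjusted p = 0.00125), and Zfp362, a zinc finger gene, 15.7 and 17.6 CPM in the macro-metastatic libraries, against 55.9 and 55.3 CPM in the control libraries (log2 fold change −1.74, SE 0.15, adjusted p = 0.00106). Bcl9, a coactivator of Wnt signals, fell with a log2 fold change of −1.70, Txnip, an inhibitor of glucose uptake, with −1.67 and Rsrp1, of unsettled function, with −1.59. Txnip and Zfp362 also changed in B cells, by −1.40 and −1.29. Rsrp1 was the one of these 5 whose change was called below that in B cells (−1.13, SE 0.23, adjusted p = 0.00767). Leaving out control replicate 1 ended the call of Col3a1 (4.89), Col1a2 (4.38), Slpi (5.74) and Emp1 (3.51). Calls lost without control replicate 2 were Col3a1 (7.63), Col1a2 (6.88) and Slpi (6.92). Also not called were Zfp362 (−1.20) after thinning to 1000 UMIs.

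Pre-metastatic against control members differed in 2 of 12283 genes by edgeR's quasi-likelihood test (0.0163%), namely Nfil3 and Saa1, both higher, with 929 genes at an unadjusted p under 0.05 and 94 called by DESeq2. Nfil3 was higher by 2.55 on the log2 scale (adjusted p = 0.0323), and it was not called among marker-rich barcodes (2.42) or after thinning (1.62). With endothelial transcripts under 0.1% or mitochondrial UMIs under 10% no gene was called. Neither gene was called when any 1 of the pre-metastatic or control libraries was left out, where Nfil3 had log2 fold changes of 2.51 to 2.62. Saa1, which encodes the acute-phase protein serum amyloid A1, stood at 0.963 and 0 CPM among control, at 234 and 155 CPM among pre-metastatic and at 19.1 and 35.7 CPM among macro-metastatic members. The control libraries held 2 UMIs of Saa1, so the ratio of pre-metastatic to control levels was 391, with an exact 95% counting interval of 108 to 3230, and that of macro-metastatic to control levels was 48.1 (13.3 to 398). Saa2 had 0 UMIs in both control libraries, and against a floor of 3 UMIs over the group it was at least 176-fold higher in pre-metastatic and at least 26.6-fold higher in macro-metastatic members. The 2 genes share 39.1% and 39.8% of the 31-base words near their 3′ ends, so reads may be split between them. B cell barcodes held Saa1 at 0.843 CPM in control, 259 CPM in pre-metastatic and 29.7 CPM in macro-metastatic libraries, and the 14 acute-phase genes summed to 1361 and 514 CPM in pre-metastatic B cells, against 120.4 and 53.4 CPM in control B cells, while the members held 1177 and 849 CPM in pre-metastatic and 373 and 150.1 CPM in control libraries. In macro-metastatic against control members 6 of the 14 were called higher and 0 lower, and 10 among marker-rich barcodes.

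Marker-rich barcodes gave 11 of 11757 genes between pre-metastatic and control libraries (0.0936%), 10 higher (0.0851%) and 1 lower (0.00851%), and these were chosen for naming after their values were seen. Beside Saa1, Saa2, Lcn2, Orm1, Orm2 and Hpx, all acute-phase or plasma protein genes of the liver, they were Csf2rb, Csf2rb2, Hbegf, Gda and Alox15. Csf2rb, the shared chain of the receptors for GM-CSF, interleukin 3 and interleukin 5, stood at 219.5 and 209 CPM among control, at 875 and 532 CPM among pre-metastatic and at 1176 and 1158 CPM among macro-metastatic marker-rich barcodes. Csf2rb2, its near relative, stood at 109 and 109, 407 and 268, and 397 and 411 CPM in the same order. Hbegf, a growth factor of the epidermal family, stood at 182 and 201 CPM among control, at 480.0 and 481 CPM among pre-metastatic and at 1661 and 1230.0 CPM among macro-metastatic barcodes. Gda, guanine deaminase, stood at 31.7 and 24.4, 295 and 196, and 457 and 298 CPM. Alox15, a lipoxygenase of resident peritoneal macrophages and eosinophils, was lower in pre-metastatic than in control barcodes, with 0.675 and 0.908 CPM against 28.7 and 34.1 CPM. Among all members none of Csf2rb, Csf2rb2, Hbegf, Gda and Alox15 was called by edgeR's quasi-likelihood test, with adjusted p from 0.107 to 0.899.

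Macro-metastatic against pre-metastatic members differed in 2864 genes (23.3%), 1839 higher (15.0%) and 1025 lower (8.34%), and 2170 of the 2582 calls among marker-rich barcodes, 1762 higher (15.0%) and 820 lower (6.97%), were shared. Without TMM scaling the split was 1575 higher and 1693 lower. Leaving out pre-metastatic replicate 1 left 402 calls and leaving out replicate 2 left 760. Slc40a1 was lower with a log2 fold change of −2.01, Maf with −1.28 and Id1 with −1.68. Crip1 and Emp3 were higher by 4.43 and 3.94, H2-DMa by 3.87. Tent5a, a poly(A) polymerase, stood at 352 and 381 CPM among control, at 417 and 439 CPM among pre-metastatic and at 148 and 146 CPM among macro-metastatic members (log2 fold change −1.54, SE 0.12, adjusted p = 0.000735 against pre-metastatic). Saa1 was lower in macro-metastatic than in pre-metastatic members (log2 fold change −2.83, SE 0.35, adjusted p = 0.003), as was Saa2 (log2 fold change −2.52, SE 0.42, adjusted p = 0.0112), which was not called without pre-metastatic replicate 1 (−2.01). Among marker-rich barcodes the 2 values were −1.78 and −1.52. The comparison shares its macro-metastatic libraries with the one against control, so the 2 are not independent.

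By the rule for named genes, those whose change exceeded that in B cells were Ahnak, Plac8, Irf2bpl and Prdm1. Plac8, a small protein of monocytes and granulocytes, stood at 65.0 and 36.9 CPM among control, at 568 and 299.6 CPM among pre-metastatic and at 532 and 236 CPM among macro-metastatic members (log2 fold change 2.90, SE 0.51, adjusted p = 0.0106 against control), while B cells held it at 455 CPM in macro-metastatic libraries, against 593 CPM in control libraries. Its change in pre-metastatic against control members also exceeded that in B cells (2.84, SE 0.38, adjusted p = 0.00483). Msr1, a scavenger receptor, was the other of 2 called differences among 10084 genes in that comparison (0.0198%). The change of Msr1 was below that in B cells (−4.91, SE 0.82, adjusted p = 0.0487, by the interaction term). The members held Msr1 at 1058 and 804 CPM in pre-metastatic and 790 and 692 CPM in control libraries, with no called change (log2 fold change 0.33). Prdm1, which encodes the repressor BLIMP-1, stood at 28.4 and 24.4 CPM among control, at 37.3 and 54.0 CPM among pre-metastatic and at 85.6 and 73.1 CPM among macro-metastatic members (log2 fold change 1.58, SE 0.23, adjusted p = 0.0057). Irf2bpl, a zinc finger regulator, rose by 1.26. Ahnak, a large scaffold protein, rose by 2.59 among all members and was not called among marker-rich ones (0.92). Plac8 (3.39), Prdm1 (1.71), Irf2bpl (0.98) and Ahnak (2.04) were not called without control replicate 1. The log2 fold changes of Plac8 (2.57) and Irf2bpl (1.61) were no longer called without control replicate 2. Leaving out macro-metastatic replicate 2 ended the call of Irf2bpl (0.93). The call lost without pre-metastatic replicate 2 was Irf2bpl (1.28). Calls also ended for Irf2bpl (1.54) and Ahnak (0.40) after thinning to 1000 UMIs.

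The nearest other barcodes were the 3722 that met the marker rule and held more endothelial transcripts. In the macro-metastatic libraries their median marker share was 0.0609% and 0.0801%, against 1.01% and 1.01% in control libraries, with 1.18% and 1.05% in the pre-metastatic ones. The change from control to macro-metastatic libraries differed between the sets in 1607 of 12663 genes (12.7%) and that to pre-metastatic libraries in 0 (0.0%), by edgeR's quasi-likelihood test. The macro-metastatic difference was taken between barcodes of unlike marker content, so its genes are not described further. The pre-metastatic one sets like barcodes side by side: 393 genes had an unadjusted p under 0.05 in it, and with no filter on low counts 55 genes were called.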

How the data were processed

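The authors deposited raw UMI counts per gene and cell barcode for 6 libraries. Per the submitters' processing notes, CASAVA 1.8 and UMI-tools were used with the mm10 build, while aligner, annotation and strand setting were not given in the sources used here. Gene names came from the deposited files, and positions, GC content and lengths from GENCODE M21 for GRCm38 (31107 of 31253 features, 99.5%). Member counts were added up within each library and tested with edgeR 4.0.16 (R 4.3.3; filterByExpr, TMM, quasi-likelihood test, Benjamini-Hochberg adjustment, calls at an adjusted p under 0.05). All 6 libraries entered 1 fit with 3 residual degrees of freedom. B cell barcodes had at least 2 UMIs of Cd79a, 1 of Cd79b or Ms4a1, and 0 of Cd3e, Clec4f, Vsig4, Kdr and Ptprb. Differences from them were interaction terms with the library as a block. Both fits were tested on simulated data. Doublets were predicted within each library (scanpy 1.11.5, expected rate 6%, score threshold 0.282) and left out only as an alternative. Other alternatives changed the scaling, filter, tool, membership limits, depth or libraries.

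The members and gene lists were chosen with earlier results of these data known. The text names the 8 largest rises and falls per comparison, up to 5 genes per list by adjusted p, every gene of the membership rule, and the 4 largest differences from B cells each way. The first kind had to be called, average at least 5 in log2 CPM, have separated groups and reach 50% of the pooled level in other barcodes. The marker-rich limit of 0.5% was added after the data were seen. Of the list genes, 6 had no feature and were not analysed here. The results for some genes are not reported here.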

Additional observations from a re-analysis of the deposited data

Results flagged for a closer look

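For 8 genes the change from control to macro-metastatic libraries differed between Kupffer marker barcodes and B cell barcodes, by the interaction term of edgeR's quasi-likelihood fit. The difference, in Kupffer marker minus B cell barcodes on the log2 scale, was 3.14 for Ahnak, 3.01 for Plac8, 2.74 for Irf2bpl and 2.56 for Prdm1. In B cells each of these genes was at a lower pooled level in macro-metastatic than in control libraries, at 413 against 614 CPM for Ahnak, 455 against 593 CPM for Plac8, 32.7 against 93.6 CPM for Irf2bpl and 65.5 against 143 CPM for Prdm1. Tested in B cells alone, this fall was called for Irf2bpl and Prdm1 and not for Ahnak or Plac8. The difference was −10.00 for Fpr1, a formyl peptide receptor, −6.14 for Lpl, −4.35 for Hmox1 and −4.22 for Lilra5, a leukocyte immunoglobulin-like receptor. B cells held 13 UMIs of Fpr1 in macro-metastatic against 0 in control libraries, 99 against 3 of Lpl and 10 against 1 of Lilra5. At such counts the fitted differences depend on the prior count and set no bound. Hmox1 stood at 226 CPM in macro-metastatic B cells and at 15.2 CPM in control ones.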

How the results depend on the processing

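Across the alternatives for single genes of macro-metastatic against control members, 1567 values kept their direction and call, 120 lost the call and 2 reversed. C1qa reversed to −0.18 with GC content and length corrected and to −0.19 with the replicate block as well, and the cause was not tested. Genes called between macro-metastatic and control members numbered 817 with every barcode thinned to 1000 UMIs, where fewer genes and UMIs enter, and 489 to 2204 when 1 library was left out. Between macro-metastatic and pre-metastatic members they were 1139 after thinning and 402 to 2629 with 1 library left out. Without TMM scaling the median of all genes was −0.131 and −0.133 in these comparisons. With GC content and transcript length corrected for, 2293 genes were called against control, and 1673 of the 2582 calls of the main fit remained. Against pre-metastatic members 2440 genes were then called, and 1795 of the 2864 remained. Between pre-metastatic and control members the count of 2 became 94 with DESeq2, 77 with no filter on low counts, 4 with the replicate block, 5 with the block and GC correction, 4 with at least 4 markers, 10 after thinning, 11 with marker-rich barcodes and 0 with endothelial transcripts under 0.1% or mitochondrial UMIs under 10%, and 0 to 12 with 1 library left out. Where 1 library was left out, the lone one of its group was assumed to vary like the others.

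Differences from B cells numbered 415 without the filter, 167 with marker-rich barcodes and 114 to 414 with 1 library left out for macro-metastatic against control; for pre-metastatic against control the 2 became 5 without scaling, 31 without the filter, 1 with marker-rich barcodes and 1 to 45 with 1 library left out. Differences from the endothelial-rich barcodes numbered 2495 and 55 without the filter, and 508 to 2384 and 0 to 1 with 1 library left out, for the macro-metastatic and pre-metastatic comparison. The share of members was 16.8% with at least 4 markers and 14.3% for marker-rich barcodes in macro-metastatic libraries, against 2.37% and 2.41% in control ones, where it was also 2.08% with endothelial transcripts under 0.1%, 1.82% with mitochondrial UMIs under 10% and 2.67% after thinning; the order of the 3 groups held throughout.

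No label says that a replicate number pairs libraries across groups. Same-numbered libraries of 2 groups had deviations correlated at 0.0641 for pre-metastatic and control, −0.0880 for macro-metastatic and control and 0.0727 for macro-metastatic and pre-metastatic. With 1 replicate difference per group, these values cannot settle whether libraries were paired. With the replicate block 2351 genes were called against control and 2626 against pre-metastatic members in macro-metastatic ones. Control replicates 1 and 2 held 242 and 254 members, so low genes there rest on few UMIs.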
